A study of Mus musculus with 6 samples.

Results

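The 36 genes described here act in cell polarity, in the unequal sharing of fate determinants at division, and in Notch signalling. They were chosen by name, and each of the 36 symbols matched 1 Ensembl gene ID among the 41128 genes of the deposited expression table. They fall into Numb and Musashi genes (4), the Par complex with Cdc42 (7), the Scribble complex (4), spindle orientation and segregation genes (8) and Notch pathway genes (13).

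The RNA came from C57BL mouse bone marrow cells sorted as LTR-HSC, the long-term repopulating stem cells that can rebuild blood after transplantation. The labelled gate was Lin-Sca1+c-Kit+CD41-CD48-CD150+. DMSO mice received the solvent alone, and YH250 mice received YH250, which the series title calls a p300/catenin antagonist, at 2 mg per kg under the skin. In both groups marrow was collected 16 h after dosing, at that time only, and each group had 3 poly(A) libraries numbered 1 to 3. The labels name no altered gene in either group. The labels do not give the animals' age or sex, whether a library is 1 animal or a pool, or what a number stands for, so p-values here measure only the spread between these libraries. The submitters' design note anticipated that genes of stem cell maintenance and of symmetric expansion would be higher after YH250.

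A dividing cell can place its fate determinants at 1 pole, turn its spindle along the same axis, and so give its daughters different contents. The Par complex marks 1 cortical domain, the Scribble complex opposes it, and a Gpsm2-Numa1-dynein chain pulls the spindle poles toward the marked cortex. Numb, when inherited by 1 daughter, lowers Notch signalling there, and Musashi proteins in turn repress translation of Numb mRNA. Notch receptors are cut by Adam10 and then by gamma-secretase after a ligand binds, and the freed domain joins Rbpj and Maml1, which recruits p300, on target genes such as Hes1. In blood, Notch signalling is best known for directing progenitors to the T lineage, while Msi2, Cdc42 and Pafah1b1 (Lis1) have been studied in stem cell self-renewal, polarity and division.

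Values are RPM, reads scaled to 1 common total per library. A read was worth 0.0321 to 0.0455 RPM, so a gene at 1 RPM rested on about 22.0 to 31.2 reads, and the reads in genes came to about 18200000 to 24300000 per library. The transcripts of the sorted cells did not follow the common label in every library. Slamf1, which encodes the required CD150, was at 31.5 to 35.5 RPM in the libraries numbered 1 and at 0.515 to 4.69 RPM in the other 4, and Cd48, which the gate was to exclude, was at 252 to 258 RPM in those numbered 3. Of 16 stem cell genes (Procr, Slamf1, Mecom, Hlf and others), 15 were lower in both libraries numbered 3 than in both numbered 1, and their summed level was 1797 to 2146 RPM in number 1, 1669 to 1747 RPM in number 2 and 846 to 969 RPM in number 3. Of 10 multipotent progenitor genes (Flt3, Cd34, Cd48, Dntt and others), 10 were higher in both libraries numbered 3, with sums of 245 to 323 RPM, 1065 to 1311 RPM and 2731 to 2812 RPM. The T and NK list (12 of 12 genes higher in number 3) summed to 65.6 RPM in DMSO 1 and 144 RPM in YH250 1. Its sums were 125 RPM in DMSO 2, 214 RPM in YH250 2 and 503 to 507 RPM in number 3, with Trac and Ncr1 at 0 in some libraries. The B cell list (9 of 9 higher) summed to 66.7 to 171 and 621 to 817 RPM, with Pax5 at 0 in 2 libraries. Stromal and endothelial genes summed to 128 to 153 RPM in 5 libraries and 454 RPM in YH250 2, which held the highest value of 8 of 14 of them, with Pdgfra and Col3a1 at 0 in some libraries. The megakaryocyte and erythroid list summed to 115 to 142 RPM in number 1 and 19.3 to 44.7 RPM in number 3, with Gp1bb, Hba-a1 and Slc4a1 among those at 0 in some libraries. The myeloid list summed to 317 to 534 RPM in all, with Ly6g and Cd14 at 0 in some. Of its 12 genes, 8 were higher and 1 was lower in both libraries numbered 3 than in both numbered 1. Marker lists also differed between treatments. On the log2 scale 11 of 12 T and NK, 8 of 10 progenitor and 7 of 8 tested B cell genes had higher means in YH250. Their median log2 differences were 0.83, 0.67 and 0.63, against 0.02 over all genes. On the RPM scale the counts were 10 of 12, 7 of 10 and 4 of 9. Of the 16 stem cell genes 11 were lower on the log2 scale. None of these genes passed the test between treatments described below. The part of these marker lists in the results that follow was not tested. In such bulk RNA, fewer cells of a type and less RNA per cell cannot be told apart.

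Per kilobase of exon, which allows genes to be compared, Cdc42 had the highest level of the 36 genes, 160 ± 35.8 RPM per kb (SD, n = 6 libraries), followed by Gnai2 at 65.8 ± 14.0 and Hes1 at 45.4 ± 19.6 RPM per kb. Msi2 and Adam10 came next with 20.5 ± 4.06 and 20.4 ± 6.17 RPM per kb, which did not differ beyond their spread. Within families, 1 gene usually carried most of the signal per kb. Msi2 made up 99.8% of the Musashi signal, Numb 85.0% of Numb and Numbl, Llgl1 78.2% of the Llgl pair, and Pard6a 64.1% of the 3 Pard6 genes, as means over 6 libraries. Of the summed signal of Notch1 to Notch4, Notch2 held 52.2% and Notch1 33.3%. In RPM, 6 genes averaged over 100, 13 between 10 and 100, and 12 between 1 and 10. The other 5 (Msi1, Pard3, Insc, Dll1 and Hey1) averaged under 1 RPM, the minimum for testing, and are given as values only.

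No gene of the set passed the test between YH250 and DMSO. The test was limma on log2(RPM + 1), with Benjamini-Hochberg adjustment at 0.05 over 13597 genes, and it called 0 of the 31 genes tested and 0% of all genes, the smallest adjusted p being 0.999. At an unadjusted p under 0.05, limma gave 1 of the 31 (Prkci), against 1.70% of all genes. With the replicate number as a block it gave 4 of 31 (Prkci, Msi2, Dtx1 and Tspan2), against 7.44% of all genes, and again no adjusted p passed, the smallest being 0.66. Groups did not overlap for 2 genes of the 31, both lower in YH250 (Msi2 and Prkci). Among all genes, 3.68% were lower and 3.79% higher in YH250 without overlap. On the log2 scale the means of 13 genes were higher and of 18 lower in YH250, with a median log2 difference of -0.08 against 0.02 over all genes.

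**Figure D1:**
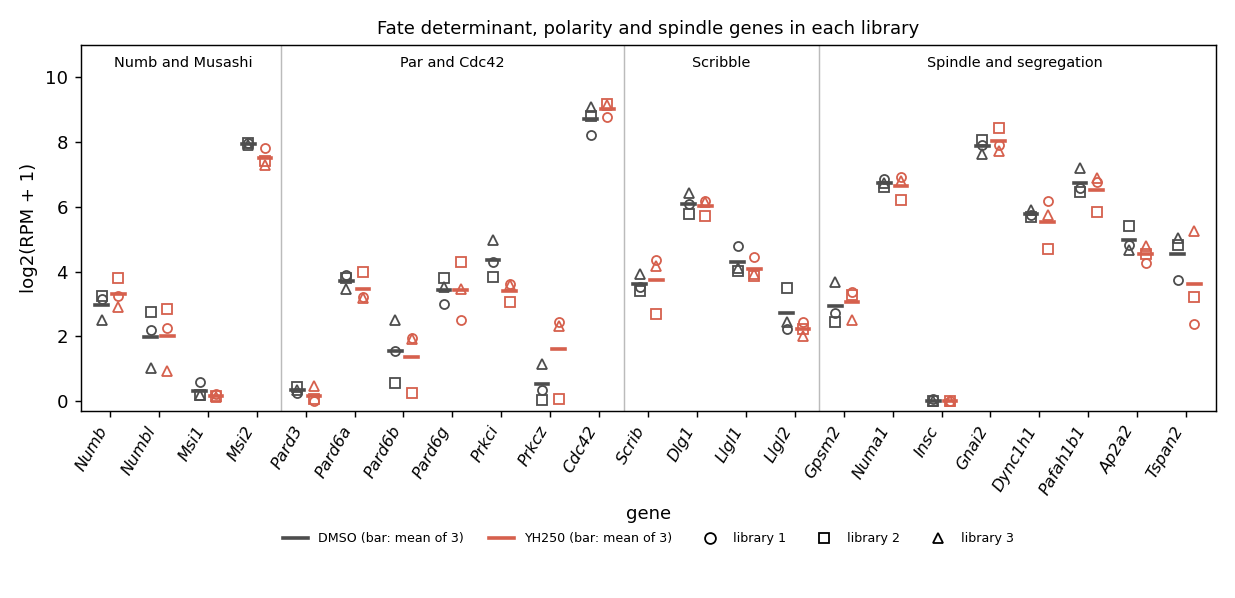
Level of the 23 fate determinant, Par, Scribble and spindle genes in each library, as log2(RPM + 1). Each symbol is 1 library (circle, square and triangle for numbers 1, 2 and 3), grey for DMSO and red for YH250, and bars are group means of 3. The symbols of the 2 groups are apart for Msi2 and Prkci among the genes tested, and the triangles and squares of Numbl, Pard6b and Prkcz stand far apart within a group.

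Msi2 and Prkci were the genes of the set that were lower in every YH250 library than in any DMSO library, and Tspan2 was 1 of the 2 that passed a test between replicate numbers. Their promoter windows are shown for that reason. Each runs from 250 bases before to 50 bases after a transcription start and reads 5′ to 3′ on the gene's strand, from RefSeq on GRCm38.p6. They are Msi2 at chr11:88718228-88718527 (minus strand, the first of 3 listed), Prkci at chr3:30995521-30995820 (plus strand) and Tspan2 at chr3:102734520-102734819 (plus strand, the first of 2 listed). Capitals mark TGGGAA, the core bound by Rbpj, here on the opposite strand and so read as its complement.
Msi2: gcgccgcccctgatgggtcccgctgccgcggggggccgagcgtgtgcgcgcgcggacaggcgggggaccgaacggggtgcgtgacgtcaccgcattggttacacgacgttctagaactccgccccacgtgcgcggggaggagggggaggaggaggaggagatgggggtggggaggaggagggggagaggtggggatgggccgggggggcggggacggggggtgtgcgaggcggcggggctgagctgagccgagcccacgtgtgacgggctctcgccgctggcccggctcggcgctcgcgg
Prkci: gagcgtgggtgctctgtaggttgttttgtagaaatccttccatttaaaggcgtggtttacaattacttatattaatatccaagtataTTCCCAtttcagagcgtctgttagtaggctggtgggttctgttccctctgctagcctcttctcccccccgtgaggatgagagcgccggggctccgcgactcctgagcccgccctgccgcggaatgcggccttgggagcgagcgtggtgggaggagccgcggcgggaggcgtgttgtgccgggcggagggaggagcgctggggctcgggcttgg
Tspan2: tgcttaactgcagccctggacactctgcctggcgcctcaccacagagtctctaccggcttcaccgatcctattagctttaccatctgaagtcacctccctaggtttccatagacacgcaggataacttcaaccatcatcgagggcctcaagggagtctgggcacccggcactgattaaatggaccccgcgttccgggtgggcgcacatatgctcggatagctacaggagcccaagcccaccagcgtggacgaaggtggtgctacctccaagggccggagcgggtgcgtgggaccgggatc
The Msi2 window is the richest of the 3 in CpG, with 39 CpG and 76.3% G+C. That is more CpG than 95.7% of the 27025 promoters in the table have, whose medians are 7 CpG and 52.7% G+C. Prkci had 22 CpG and 59.7% G+C, and Tspan2 17 CpG and 59.3% G+C. Of the 36 genes, 28 had an entry, and Msi1, Pard6g, Scrib, Llgl2, Gnai2, Hes1, Hey1 and Dtx4 did not. The letters TGGGAA occurred on either strand in the windows of 5 of the 28 genes (Pard6b, Prkci, Rbpj, Insc and Llgl1), and in 25.5% of all promoters. The letters TCAAAG, the core bound by the TCF and LEF partners of beta-catenin, occurred in 2 of the 28 (Jag1 and Maml1) and in 16.2% of all. These 2 motifs share no longer word, and neither count says that a factor was bound.

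Among the fate determinants, Msi2 was the most abundant and the only tested member whose YH250 values all lay under the DMSO values. Msi2 (chromosome 11, 88339382 to 88718513, GRCm38) encodes an RNA-binding protein that represses translation of its target mRNAs. Its level was 247, 251 and 240.3 RPM in DMSO 1, 2 and 3 and 222, 168 and 154 RPM in YH250 1, 2 and 3. The DMSO libraries lay close together, and the YH250 libraries were spread out below them. The log2 difference was -0.46 ± 0.22 (SE, 95% interval -0.95 to 0.04, limma unadjusted p = 0.0658, adjusted p = 0.999), and the replicate block gave an unadjusted p of 0.0193 and an adjusted p of 0.66. It stayed between -0.61 and -0.35 when any 1 library was left out. Its paralog Msi1 was listed at 0.0837 to 0.506 RPM.

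Numb, the endocytic adaptor that restrains Notch, was at 7.83, 8.46 and 4.69 RPM in DMSO and 8.43, 13.0 and 6.55 RPM in YH250. YH250 was above DMSO at each number, but the groups overlapped, and the log2 difference was 0.36 ± 0.43 (limma adjusted p = 0.999). Numbl, its paralog, was at 3.60, 5.79 and 1.02 RPM in DMSO and 3.79, 6.25 and 0.896 RPM in YH250. Its libraries went by number in both groups alike, highest in number 2 and lowest in number 3, and hardly by treatment (log2 difference 0.02, 95% interval -1.48 to 1.52).

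Of the 7 Par complex genes, Prkci was the 1 with an unadjusted p under 0.05. Prkci (chromosome 3, 30995747 to 31052959) encodes the atypical protein kinase C iota, the kinase of the complex. It was at 18.6, 13.2 and 30.1 RPM in DMSO and 11.2, 7.28 and 10.9 RPM in YH250. Every YH250 library was lower than the lowest DMSO library, and the YH250 mean was 0.475 of the DMSO mean. The log2 difference was -0.95 ± 0.39 (95% interval -1.83 to -0.07, limma unadjusted p = 0.0379, adjusted p = 0.999). With the replicate block the unadjusted p was 0.012 and the adjusted p 0.66. Leaving out any 1 library gave -1.21 to -0.65. The gene of the zeta form, Prkcz, was at 0.269, 0.0368 and 1.23 RPM in DMSO and 4.46, 0.04 and 4.04 RPM in YH250. It was high in YH250 1 and 3 and at about 1 read in both libraries numbered 2 (log2 difference 1.10, 95% interval -0.53 to 2.72). Per kb, Prkcz made up 25.9%, 0.48% and 24.5% of the signal of both kinases in YH250 1, 2 and 3, and 1.25%, 0.243% and 3.46% in DMSO.

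The Pard6 adaptors, which hold the kinase to Cdc42, passed neither between treatments nor between numbers. Pard6a was at 13.8, 12.9 and 9.97 RPM in DMSO and 8.21, 14.7 and 8.05 RPM in YH250. Pard6b was at 1.92, 0.478 and 4.74 RPM in DMSO and 2.85, 0.20 and 2.75 RPM in YH250, lowest in number 2 in both groups. Pard6g was instead highest in number 2 and lowest in number 1 in both groups, with 7.06, 12.9 and 10.4 RPM in DMSO and 4.65, 18.5 and 10.1 RPM in YH250. The scaffold Pard3 was listed at 0 to 0.375 RPM, that is at no more than 9.99 reads in any library, and at 0 in YH250 1. Cdc42, the small GTPase that recruits the Par6 proteins, was at 298, 440.0 and 544 RPM in DMSO and 434, 571 and 564 RPM in YH250. Its YH250 value was higher at each number, by 0.54, 0.38 and 0.05 on the log2 scale, and the groups overlapped (log2 difference 0.32, 95% interval -0.27 to 0.92). With the replicate block that interval was -0.04 to 0.68.

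None of the 4 Scribble complex genes separated the groups, and their median log2 difference was -0.15. Scrib, the scaffold, was at 10.6, 9.57 and 14.1 RPM in DMSO and 19.5, 5.40 and 17.2 RPM in YH250. Dlg1, a membrane-associated guanylate kinase scaffold and the most abundant of the 4 per kb, was at 67.0, 54.3 and 84.3 RPM in DMSO and 71.8, 51.5 and 70.0 RPM in YH250. Both had their lowest value at number 2 in each group. Llgl1, a substrate of the atypical kinases, was at 26.6, 15.2 and 16.1 RPM in DMSO and 20.7, 13.4 and 14.2 RPM in YH250. It was lower in YH250 at each number, by less than the difference between numbers 1 and 2. Llgl2 was at 3.68, 10.2 and 4.46 RPM in DMSO and 4.42, 3.68 and 3.04 RPM in YH250, the DMSO 2 value standing above the rest.

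Spindle orientation genes were expressed at all links of the chain but 1. Insc, the adaptor that ties Par3 to the spindle machinery, was listed at 0 in 5 libraries and at 0.0384 RPM, the worth of 1 read, in DMSO 1. Gnai2, the G protein alpha subunit that anchors Gpsm2 at the membrane, was at 236, 265 and 198 RPM in DMSO and 237, 345 and 209 RPM in YH250. Gpsm2 (LGN) was at 5.56, 4.46 and 11.7 RPM in DMSO and 9.26, 8.76 and 4.66 RPM in YH250, with no order shared by the groups. Numa1, which links Gpsm2 to dynein, was at 115, 97.5 and 105 RPM in DMSO and 120.4, 72.9 and 109.7 RPM in YH250. Their log2 differences, 0.15, 0.10 and -0.10, all had 95% intervals that spanned 0.

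The motor end of the chain was lowest in YH250 2. The dynein heavy chain gene Dync1h1 was at 53.1, 50.6 and 59.1 RPM in DMSO and 72.1, 24.8 and 52.5 RPM in YH250. Pafah1b1, the dynein regulator Lis1, was at 95.2, 86.1 and 144 RPM in DMSO and 108, 56.0 and 118 RPM in YH250. In both genes YH250 2 was below every other library and the other YH250 libraries lay among or above the DMSO ones. That library also held the highest sum of stromal and endothelial transcripts, whose part in these values was not tested.

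Ap2a2 and Tspan2 differed in how they varied. Ap2a2, an endocytic adaptor subunit that has been seen to segregate unequally in dividing blood stem cells, was at 27.2, 41.6 and 24.5 RPM in DMSO and 18.0, 22.3 and 26.7 RPM in YH250 (log2 difference -0.44, 95% interval -1.13 to 0.25). Tspan2, a tetraspanin membrane protein, was at 12.4, 27.4 and 31.7 RPM in DMSO and 4.20, 8.23 and 37.3 RPM in YH250. YH250 was lower at numbers 1 and 2 and higher at number 3. The log2 difference was -0.92 ± 0.70 (limma unadjusted p = 0.220), with the replicate block an unadjusted p of 0.0376 and an adjusted p of 0.66. Without YH250 3 it was -1.74, and without YH250 1 it was -0.30.

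**Figure D2:**
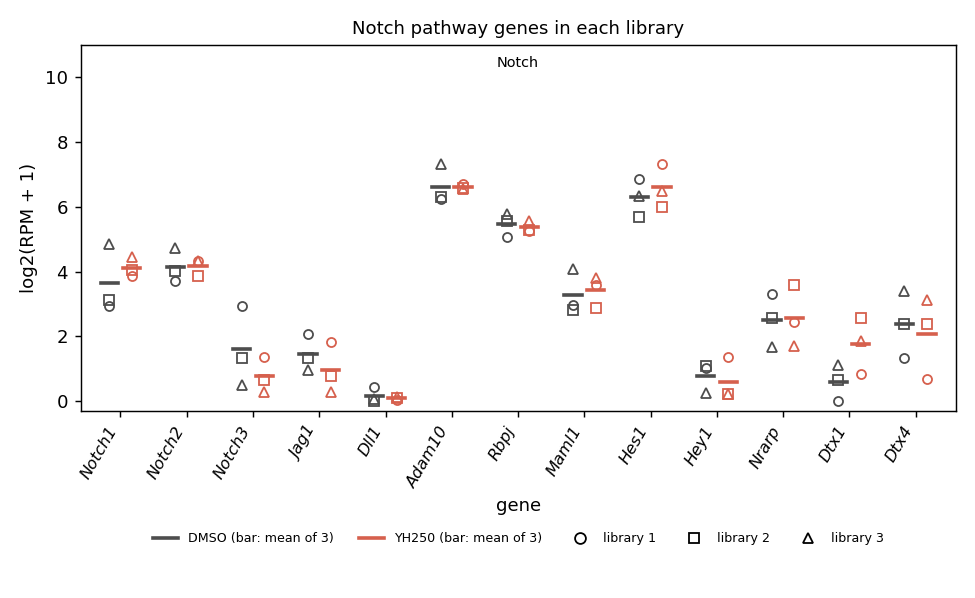
Level of the 13 Notch pathway genes in each library, as log2(RPM + 1), with symbols and bars as in the plot of polarity genes. Notch3, Jag1 and Hey1 are highest in a library numbered 1 or 2 and low in the triangles (number 3), while Dtx4 has its triangles on top in both groups.

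The Notch genes as a set lay where all genes lay after YH250, with 6 means higher and 5 lower among the 11 tested and a median log2 difference of 0.02. Notch1, the receptor that directs T lineage choice, was at 6.60, 7.80 and 27.6 RPM in DMSO and 13.4, 15.5 and 20.8 RPM in YH250. DMSO 3 was the highest library, while the other 2 DMSO libraries were the lowest, so the mean difference (0.48 on the log2 scale, 95% interval -0.69 to 1.65) came with the opposite sign at number 3. Notch2 was at 12.1, 15.3 and 25.4 RPM in DMSO and 19.1, 13.6 and 18.9 RPM in YH250 (log2 difference 0.02, 95% interval -0.79 to 0.83). Notch3, a receptor better known from vascular smooth muscle, was at 6.72, 1.55 and 0.41 RPM in DMSO and 1.57, 0.584 and 0.208 RPM in YH250. It was highest in number 1 and lowest in number 3 in each group, and DMSO 1 stood well above the rest, where Notch3 made up 30.0% of the receptor signal per kb against a mean of 8.25%. Its log2 difference between treatments was -0.83 ± 0.68 (limma unadjusted p = 0.256), and without DMSO 1 it was -0.16.

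Ligand transcripts were scarce. Jag1 was at 3.19, 1.53 and 0.955 RPM in DMSO and 2.57, 0.713 and 0.209 RPM in YH250, lower in YH250 at each number and lowest at number 3 in each group. Dll1 was listed at 0 to 0.345 RPM. Adam10, the protease that sheds the receptor's outer part, was at 73.9, 78.5 and 158 RPM in DMSO and 103, 94.9 and 92.0 RPM in YH250. The YH250 libraries were close together and inside the DMSO range, which DMSO 3 set.

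The nuclear partners differed little between treatments. Rbpj, the DNA-binding factor of the pathway, was at 32.5, 46.2 and 53.9 RPM in DMSO and 37.1, 37.7 and 46.1 RPM in YH250 (log2 difference -0.11, 95% interval -0.71 to 0.50). Its coactivator Maml1 was at 6.75, 5.997 and 15.8 RPM in DMSO and 11.1, 6.28 and 13.1 RPM in YH250 (log2 difference 0.15, 95% interval -0.93 to 1.22). In this fit without the replicate block, the interval of Rbpj leaves out a rise or fall of 2-fold, and that of Maml1 does not. With the block the interval of Maml1, -0.65 to 0.95, leaves it out too.

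Among the targets and modulators, Hes1 was by far the most abundant, and Dtx1 had a positive difference whose size rested on single libraries. Hes1, a transcriptional repressor, was at 115, 49.8 and 79.5 RPM in DMSO and 159.7, 62.4 and 88.2 RPM in YH250. It was higher in YH250 at each number, by 0.47, 0.32 and 0.15 on the log2 scale. The spread between numbers was wider, and it enters the interval of the fit without the block (log2 difference 0.31, 95% interval -0.60 to 1.22). With the replicate block the interval was -0.07 to 0.69 (limma unadjusted p = 0.0985, adjusted p = 0.675). Hey1, a related repressor, was at 1.04, 1.10 and 0.182 RPM in DMSO and 1.57, 0.16 and 0.167 RPM in YH250. Nrarp, a feedback inhibitor, was at 8.98, 4.93 and 2.19 RPM in DMSO and 4.46, 11.1 and 2.25 RPM in YH250.

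The Deltex ubiquitin ligases Dtx1 and Dtx4 had different patterns. Dtx1 was listed at 0, 0.589 and 1.18 RPM in DMSO and was at 0.802, 4.88 and 2.63 RPM in YH250. YH250 was higher at each number, YH250 1 lay within the DMSO range, and the log2 difference was 1.16 ± 0.59 (95% interval -0.18 to 2.50, limma unadjusted p = 0.0828, adjusted p = 0.999). With the replicate block the unadjusted p was 0.0263 and the adjusted p 0.66. Leaving out any 1 library gave 0.76 (without YH250 2) to 1.61 (without YH250 1). Dtx4 was at 1.55, 4.22 and 9.50 RPM in DMSO and 0.611, 4.18 and 7.77 RPM in YH250, nearly alike at numbers 2 and 3 (log2 difference -0.31, 95% interval -2.00 to 1.38). Read numbers were small at the low end, down to 0 reads for Dtx1 and 19.1 for Dtx4.

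Comparing libraries of the same number, 6 genes were higher in YH250 at all 3 numbers (Numb, Prkcz, Cdc42, Gnai2, Hes1 and Dtx1) and 6 were lower at all 3 (Msi2, Prkci, Llgl1, Notch3, Jag1 and Dtx4). Over all genes 16.1% were higher and 15.0% lower at all 3 numbers, against 6 of 31 in each direction here. Of these, Prkcz, Dtx1 and Notch3 reached the minimum for testing only through the group where they were higher. Prkcz at number 2 and Gnai2 at number 1 differed by 0.00 and 0.01 on the log2 scale, so their sign there carries little. The same holds for Dtx4 at number 2, where its values in DMSO and YH250 were nearly alike. The median difference of the 31 genes was 0.10 at number 1, -0.08 at number 2 and -0.22 at number 3, against 0.06, 0.06 and -0.06 over all genes.

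**Figure D3:**
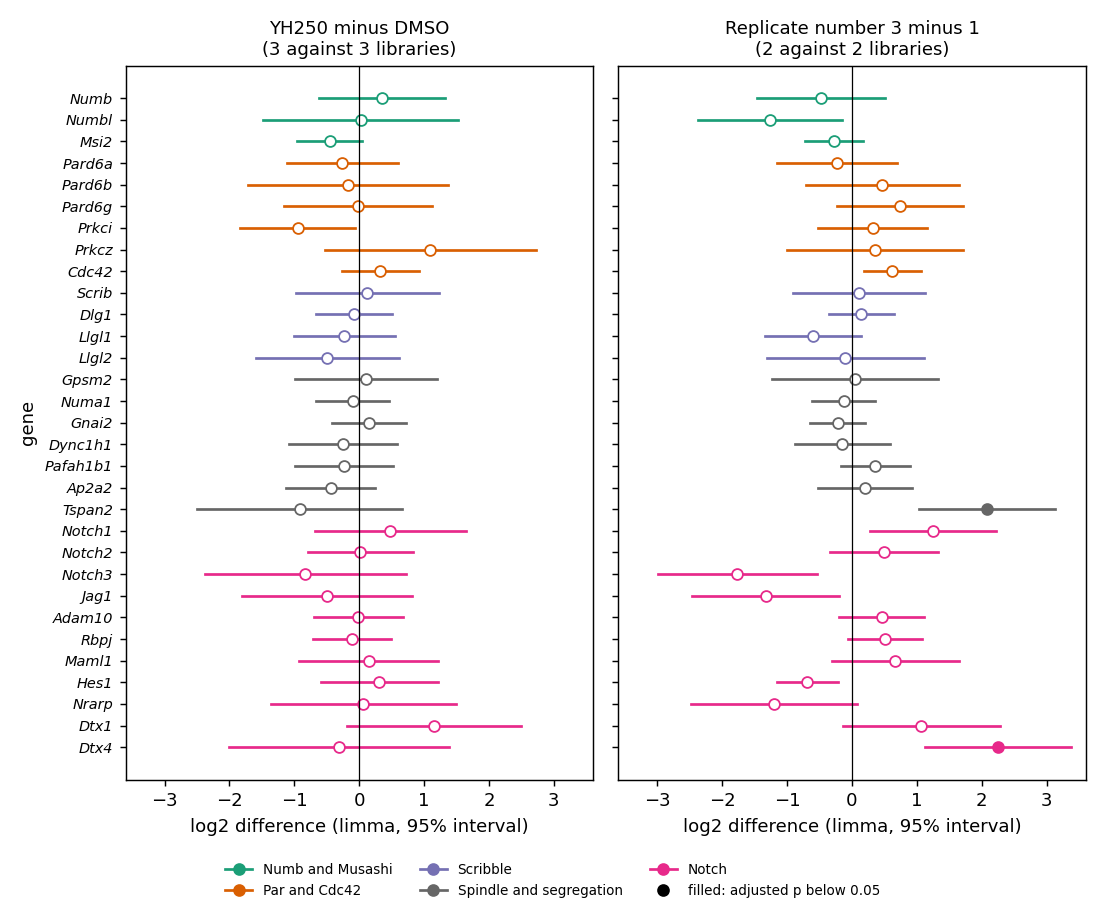
Log2 difference of the 31 tested genes, with 95% intervals from limma. The left panel compares YH250 with DMSO (3 against 3 libraries), fitted without the replicate block. The right panel compares replicate numbers 3 and 1 (2 against 2 libraries). Filled points have an adjusted p under 0.05. No point is filled on the left, where only the interval of Prkci leaves out 0, and Tspan2 and Dtx4 are filled on the right.

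Other genes of the same pathways, from lists drawn up by name, also gave no call between treatments. Of 40 further Notch pathway genes 36 were tested, with 16 means higher and 20 lower in YH250 and a median of -0.05. Among those of smallest unadjusted p was the acetyltransferase Kat2b, with a DMSO mean of 36.6 ± 8.56 RPM and a YH250 mean of 24.4 ± 10.2 RPM (SD over 3 libraries, limma unadjusted p = 0.118). Of 33 further polarity genes 26 were tested, with 8 means higher, 18 lower and a median of -0.10. The leading ones were the planar polarity gene Vangl1 at 4.20 ± 2.22 and 1.70 ± 1.33 RPM and Arhgap1, which switches Cdc42 off, at 38.2 ± 9.99 and 64.7 ± 40.3 RPM. The latter mean rests on YH250 2, at 111 RPM against 35.1 and 48.5 RPM in the other YH250 libraries. Of 20 further spindle genes 18 were tested, with 13 means higher, 5 lower and a median of 0.14. Aurka, a mitotic kinase of the spindle poles, was at 18.3, 7.80 and 19.5 RPM in DMSO and 22.8, 28.1 and 38.7 RPM in YH250, with a log2 difference of 0.99 ± 0.40 (limma unadjusted p = 0.0347, adjusted p = 0.999). Cep63, a centrosomal protein, was at 22.1, 20.9 and 22.5 RPM in DMSO and 36.005, 29.3 and 31.6 RPM in YH250, with a log2 difference of 0.54 ± 0.25 (limma unadjusted p = 0.0586, adjusted p = 0.999). For both, each YH250 library was above each DMSO library. That held for 2 of the 18 spindle genes, 1 of the 26 polarity genes and 0 of the 36 Notch genes, against 3.79% of all genes. In these lists 0 genes were lower in YH250 without overlap, against 3.68% of all genes.

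Between replicate numbers 3 and 1, 2 genes of the set passed, which is no larger a share than that of all genes. Contrasts between numbers, with treatment as a covariate and 2 libraries per number, were fitted with limma over the same 13597 genes. Between numbers 3 and 1, 2 of the 31 genes passed (Dtx4 and Tspan2, both higher in number 3), against 8.56% of all genes. Between numbers 3 and 2 none of the 31 passed, against 6.31% of all genes, and between numbers 2 and 1 none passed, against 0.199%. At an unadjusted p under 0.05, limma gave 8 of the 31 between numbers 3 and 1, against 24.4% of all genes, 11 between numbers 3 and 2, against 25.3%, and 7 between numbers 2 and 1, against 14.3%. For numbers 3 and 1 that count is near the share of all genes. These 3 contrasts share libraries with each other and with the treatment comparison.

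Dtx4 (chromosome 19, 12466338 to 12501454) had a mean of 1.08 RPM in number 1, 4.20 RPM in number 2 and 8.64 RPM in number 3, with values in each library as given above. The log2 difference between numbers 3 and 1 was 2.24 ± 0.50 (SE, 95% interval 1.12 to 3.37, limma adjusted p = 0.0254). Tspan2 (chromosome 3, 102734529 to 102801513) had means of 8.30, 17.8 and 34.5 RPM, and its log2 difference was 2.08 ± 0.47 (95% interval 1.04 to 3.13, limma adjusted p = 0.0256). Both libraries numbered 3 lay above the other 4 for each gene. Over the alternatives, Dtx4 had adjusted p-values from 0.000607 to 0.232, and passed no more without DMSO 1 (0.118), DMSO 3 (0.232), YH250 1 (0.178) or YH250 3 (0.160), nor with no minimum mean (0.104). Tspan2 ranged from 0.000454 to 0.328, and passed no more without YH250 1 (0.0638) or YH250 3 (0.328), nor with libraries scaled to an equal sum over genes (0.0635), with no minimum mean (0.174) or without the treatment term (0.0554).

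Notch receptors and targets that missed the adjusted threshold differed in opposite directions between numbers 3 and 1. Notch1 was at a mean of 24.2 RPM in number 3 and 10.02 RPM in number 1 (log2 difference 1.25, limma adjusted p = 0.109), and Notch3 at 0.309 and 4.14 RPM (-1.77, limma adjusted p = 0.0778). Jag1 was at 0.582 and 2.88 RPM (-1.33, limma adjusted p = 0.141). Hes1 was at 83.9 and 137 RPM (-0.69, limma adjusted p = 0.0732), and passed with quantile normalization (0.0127), an equal sum (0.0125) and median-of-ratios scaling (0.0446). Its lowest mean, 56.1 RPM, was in number 2. The log2 difference of number 2 from number 1 was -1.27 ± 0.21 (95% interval -1.73 to -0.80, limma adjusted p = 0.0560), and it passed with a pseudocount of 5 (adjusted p = 0.0441), with quantile normalization (0.0161) and with libraries scaled to an equal sum (0.0370).

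Among polarity genes other than Tspan2, the smallest adjusted p-values were between numbers 3 and 2. Numbl was at a mean of 0.956 RPM in number 3 and 6.02 RPM in number 2 (log2 difference -1.84, limma adjusted p = 0.0559), and passed with libraries scaled to an equal sum (0.0418). Pafah1b1 was at 131 and 71.0 RPM (0.90, limma adjusted p = 0.0533), and Pard6b at 3.74 and 0.339 RPM (limma adjusted p = 0.0709). Cdc42 was at 554 RPM in number 3, 506 RPM in number 2 and 366 RPM in number 1 (0.62 between numbers 3 and 1, limma adjusted p = 0.0833).

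**Figure D4:**
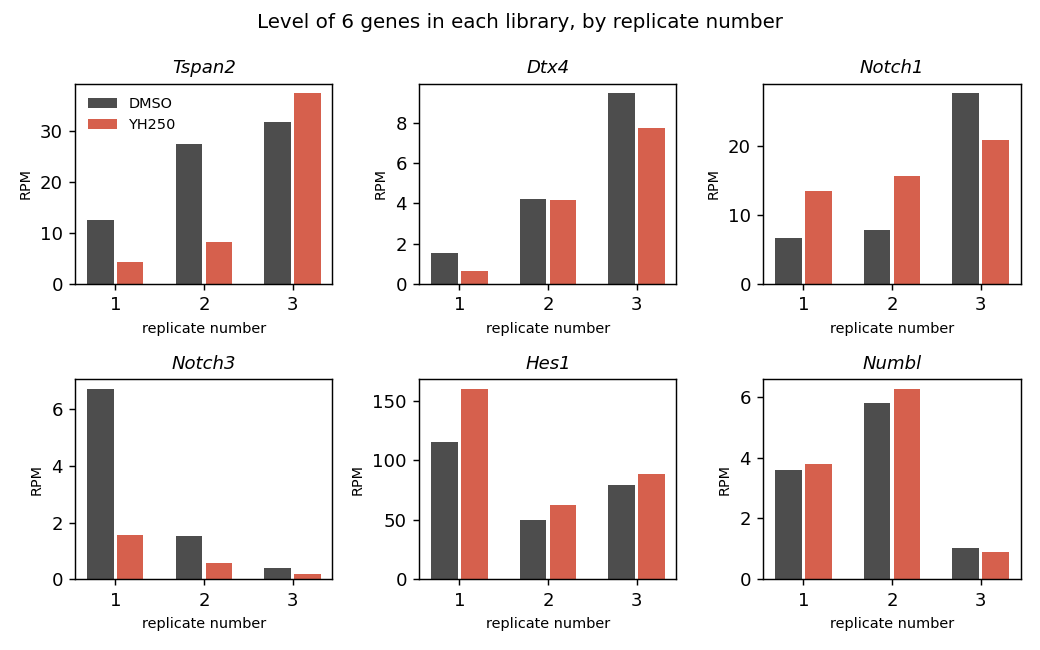
RPM of Tspan2, Dtx4, Notch1, Notch3, Hes1 and Numbl in each library, by replicate number, with DMSO in grey and YH250 in red. Each bar is 1 library. Tspan2, Dtx4 and Notch1 are highest in both libraries numbered 3, Notch3 is lowest there, Hes1 is lowest in number 2, and Numbl is highest in number 2.

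Counted by overlap alone, 9 of the 31 genes were higher and 9 lower in both libraries numbered 3 than in both numbered 1, against 32.6% and 27.6% of all genes. In both libraries numbered 3 against both numbered 2, 13 were higher and 7 lower, against 29.1% and 23.1% of all genes. In number 2 against number 1, 7 were higher and 12 lower, against 20.9% and 19.4%. The number 3 to number 1 median of the 31 genes was 0.15 against 0.04 over all genes. Scaling matters here. With libraries scaled to an equal sum over genes the median of all genes in this contrast moved from 0.04 to -0.28, and the share of calls over all genes that were higher in number 3 from 65.4% to 34.3%. In the contrast of numbers 3 and 2 the same scaling moved that share from 58.2% to 32.7%. Dtx4 and Tspan2 kept their sign, at 1.98 and 1.75.

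Of the further pathway genes, no larger share passed between numbers 3 and 1 than the 8.56% of all genes. In that contrast limma called Neurl3 (log2 difference -1.31, adjusted p = 0.0179) and Mfng (-1.05, adjusted p = 0.0187), 2 of 36 Notch genes. Neurl3 is a Neuralized-type ubiquitin ligase and Mfng a glycosyltransferase that alters the receptors' choice of ligand. The scaffold Dlg3 (-1.50, adjusted p = 0.0468) was the call among 26 polarity genes, and the dynein light chain Dynll1 (0.83, adjusted p = 0.0388) that among 18 spindle genes. Between numbers 3 and 2, where 6.31% of all genes passed, 1 of the 36 Notch genes was called higher and 4 lower. The largest were the coactivator Maml3 (1.98, adjusted p = 0.0407), the gamma-secretase subunit Aph1a (-1.74, adjusted p = 0.0252) and the Deltex gene Dtx3 (-1.42, adjusted p = 0.0434), by limma. Arhgap1, the call among 26 polarity genes, was also lower in number 3 (-1.19, limma adjusted p = 0.0434). The stem cell and progenitor marker sums given above differed between the same libraries, and their part in these calls was not tested.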

How the data were processed

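Poly(A) RNA of 6 libraries was sequenced as single-end reads after ultra-low-input cDNA synthesis, per the labels' protocols. Build mm10 and the tools Partek, TopHat2 2.0.8 and CASAVA 1.8.2 are listed in the submitters' processing notes, with no role for any. The deposited signal, made by the authors, has no stated unit. Its values are a multiple of a small step plus an offset of 1 and were read as RPM + 1. Of the low values, 61.2% to 68.5% lay within 0.1 of a whole read, so no count model was used. Strand handling is not given in these sources, so overlapping and antisense genes are uncertain. Positions and exon lengths are from GENCODE M21 (GRCm38), and promoter sequences from RefSeq.

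Genes averaging at least 1 RPM were fitted on log2(RPM + 1), which understates changes of low genes, with limma 3.58.1 (trend, robust) in R 4.3.3. The fit without the block was tried on simulated data. Those data had independent libraries and no differences between numbers, so the trial does not cover such differences. Same-numbered libraries correlated in their deviations from the group means at 0.55, 0.26 and 0.70, each over the limit of 0.1. By that limit they count as pairs, but the main treatment fit leaves the pairing out. Treatment SEs and intervals come from that fit unless the replicate block is named, so they include the spread between numbers. Their median SE over all genes was 0.39, against 0.30 with the block. Blocked results are added for some genes and where they change a count. From the wider lists the text names the 2 genes of smallest unadjusted p per list between treatments, and up to 3 of largest change past the threshold between numbers. A gene this rule takes is not reported here. Members, lists and contrasts were chosen with earlier results of these data known.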

Additional observations from a re-analysis of the deposited data

How the results depend on the processing

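Between YH250 and DMSO, 0 genes of the set passed under every alternative run: pseudocounts of 0.5 and 5, no minimum mean or one of 5, quantile, equal-sum and median-of-ratios scaling, the replicate block, and each library left out. The replicate block cannot move a log2 difference in this balanced design, so it bears on the p-values alone, and the median is -0.08 by construction. Each library left out in turn gave medians from -0.16 to 0.04. No sign is secure for small differences. Scaling to an equal sum turned Numbl (-0.060), Notch2 (-0.069) and Nrarp (-0.028), and a pseudocount of 5 turned Pard6g (0.015). Leaving out 1 library gave log2 ranges that span 0 for 18 genes: Adam10 -0.21 to 0.34, Dlg1 -0.23 to 0.078, Dtx4 -0.84 to 0.38, Dync1h1 -0.57 to 0.18, Gnai2 -0.055 to 0.30, Gpsm2 -0.14 to 0.47, Hes1 -0.054 to 0.62, Llgl1 -0.41 to 0.015, Maml1 -0.088 to 0.54, Notch2 -0.20 to 0.30, Nrarp -0.44 to 0.50, Numa1 -0.24 to 0.12, Numbl -0.47 to 0.57, Pafah1b1 -0.44 to 0.10, Pard6b -0.66 to 0.38, Pard6g -0.45 to 0.44, Rbpj -0.31 to 0.049 and Scrib -0.19 to 0.65. Without changing sign, the difference ranged from 0.13 (without DMSO 1) to 1.08 (without DMSO 3) for Notch1, -1.38 (without DMSO 3) to -0.16 (without DMSO 1) for Notch3, 0.68 (without YH250 1) to 1.87 (without YH250 2) for Prkcz, 0.085 (without DMSO 1) to 0.52 (without DMSO 3) for Cdc42, 0.11 (without YH250 2) to 0.56 (without YH250 3) for Numb, -0.93 (without YH250 1) to -0.15 (without YH250 3) for Jag1, -0.74 (without DMSO 1) to -0.11 (without DMSO 2) for Llgl2, -0.59 (without DMSO 3) to -0.22 (without DMSO 2) for Ap2a2 and -0.52 (without YH250 2) to -0.13 (without YH250 3) for Pard6a. Between numbers 3 and 1, where 2 genes passed, 0 passed with no minimum mean (27592 genes tested), 1 with a minimum mean of 5 (Dtx4 is then not tested), 1 without the treatment term and 5 with quantile normalization. Leaving out libraries gave 0 (without YH250 1) to 8 (without DMSO 2). Between numbers 3 and 2, where 0 passed, 1 passed with a pseudocount of 5, 1 with a minimum mean of 5, and 2 each with quantile and equal-sum scaling, and 0 to 8 with libraries left out, 8 without DMSO 2. Between numbers 2 and 1, where 0 passed, 1 (Hes1) passed with each of a pseudocount of 5, a minimum mean of 5, quantile, equal-sum and median-of-ratios scaling, and 0 to 5 with libraries left out, 5 without DMSO 2. Calls over all genes grew too without DMSO 2, from 1164 to 2901, 858 to 3122 and 27 to 1743 in these contrasts. Leaving out a library leaves its number with 1, whose spread is assumed to be that of the others. The cause of these shifts was not tested. Each treatment had only 3 libraries. In the fit without the block, the 95% interval of the treatment difference reached over 1 log2 unit each way for 15 of 31 genes. These included 11 of the 12 that averaged under 10 RPM, so that fit could not detect a 2-fold difference in those. With the replicate block the median SE over all genes was 0.30, against 0.39 without it. Its intervals still reached over 1 log2 unit each way for Prkcz (-0.01 to 2.20), Gpsm2 (-0.94 to 1.15), Nrarp (-0.98 to 1.10) and Notch3 (-1.83 to 0.17). Those of Pard6b, Llgl2 and Dtx1 came close to that. The blocked fit thus eased this limit but did not lift it for such genes.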

Other observations

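Genes of the wider Notch list that the rule did not name stood apart in 1 library. These were chosen after their values were seen. Heyl, a repressor of the Hes and Hey family known from vessel walls, was at 8.55 RPM in YH250 2 and at 0 to 0.417 RPM in the other 5 libraries. Dll4, the Notch ligand of endothelium, was at 7.95 RPM there and at 0.273 to 1.84 RPM elsewhere. In the same library Lepr, a receptor of marrow stroma, was at 58.2 RPM against 0.0455 to 7.99 RPM in the other 5, and the endothelial gene Plvap at 45.0 RPM against 1.27 to 10.7 RPM. Hes5 was also highest there, at 5.92 RPM against 1.43 to 2.29 RPM. Their part in the level of any other gene of YH250 2 was not tested.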
